A study of Mus musculus with 30 samples.

Results

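The integrated stress response and the unfolded protein response were followed here through 10 genes, Atf4, Atf5, Ddit3, Xbp1, Trib3, Chac1, Asns, Ppp1r15a, Hspa5 and Herpud1. They were chosen by name from the 23284 genes of 2 tables of RNA-seq read counts, and all 10 were present and passed the filter on low counts in both tables. The RNA was from mouse embryonic stem cells (ES cells) and from embryoid bodies (EBs), the aggregates in which such cells differentiate in suspension. One table holds EBs at day 4 of 2 genotypes, 2 libraries each. The other is a time course with 2 libraries a day, in which ES cells are day 0 and EBs were taken on days 1, 2, 3 and 4 (10 libraries). The study set out to learn how the p53 family takes part in the exit from pluripotency towards mesoderm and endoderm.

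The genotype libraries with p53 family loss were from a Trp53-/- ES cell line that also expressed p63shRNA and p73shRNA, hairpins that lower the other family members. This group is named p53 family loss. Their comparison was a Trp53+/+ line, and both were of C57BL/6J background and had been kept in serum-free N2B27 medium with LIF and 2 inhibitors (2i) before EB formation. The labels name no control hairpin, so the lines, the knockout and the hairpins cannot be told apart. The time course was of wild-type E14Tg2a.IV cells (129/Ola), called E14 here, kept in serum and LIF on gelatin, so line, strain and medium all differ between the tables. Nothing in the labels tells if both libraries of a group were grown as separate cultures, and p-values therefore measure the spread between these libraries only.

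Cells respond to amino acid shortage, unfolded protein in the endoplasmic reticulum (ER), viral RNA or lack of haem by phosphorylating the translation factor eIF2, which slows most protein synthesis but lets ATF4 be made. ATF4 then activates genes for amino acid supply and stress adaptation, and it does so together with other factors such as CHOP, the product of Ddit3. Unfolded protein in the ER also activates IRE1, which splices the Xbp1 transcript, and ATF6, and these raise chaperones such as BiP, the product of Hspa5. RNA counts per gene measure neither eIF2 phosphorylation, nor ATF4 protein, nor the splicing of Xbp1.

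The libraries of p53 family loss and Trp53+/+ held 19104692 to 31580252 reads, and those of the time course 20104644 to 39835808. Trp53 was at 866 and 802 normalised reads in p53 family loss, against 8339 and 11784 in Trp53+/+. In the same order Trp73 was at 48.0 and 52.5 against 219 and 297, and Trp63 at 4.43 and 0 against 6.08 and 5.31. Trp63 was thus near the floor in both genotypes, and its values cannot show whether the p63 hairpin lowered it. The 2 ES libraries at day 0 stood apart from each other more than any other pair, with 24.9% of 15841 genes differing at least 2-fold between them, against 3.86% to 10.6% within the other days. ES cell markers summed to 802 and 704 CPM (reads scaled by the library's total) at EB day 4, against 4181 and 3970 CPM in ES cells, and primitive streak and mesoderm markers to 2089 and 1852 CPM, against 22.16 and 12.98 CPM. The samples are bulk, so fewer cells of a type and less RNA per cell cannot be told apart.

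The start-site regions of the 10 genes were searched for 4 published elements, since ATF4 and the ER stress factors are known to act there. The C/EBP-ATF response element (CARE, TGATGNAA) is bound by ATF4 dimers. The ER stress elements ERSE (CCAAT and CCACG with 9 bases between them) and ERSE-II (ATTGG and CCACG with 1 base between them) are used by ATF6 and XBP1, and the unfolded protein response element (UPRE) was searched as TGACGTGG. Both strands were read, over RefSeq windows from 250 bases before to 50 after each start in the mouse build GRCm38.p6, in which all 10 genes were matched. The files were made on mm9, so the coordinates are those of RefSeq and not of the files. Of the 10 genes, 4 had a CARE (Trib3, Chac1, Asns and Herpud1), 1 an ERSE (Hspa5), 1 an ERSE-II (Herpud1) and 0 the UPRE letters. Among 32851 RefSeq windows of the same length, 3.97% had a CARE, 0.119% an ERSE, 0.0365% an ERSE-II and 0.676% a UPRE. These 5 genes are shown from 200 bases before to 25 after the start, in the direction of the gene, with the matched letters in capitals, because they hold every match found among the 10. They lie at chr2:152344036-152344260 (minus strand) for Trib3, chr2:119351042-119351266 (plus) for Chac1, chr6:7693185-7693409 (minus) for Asns, chr2:34771890-34772114 (plus) for Hspa5 and chr8:94386229-94386453 (plus) for Herpud1.
Trib3: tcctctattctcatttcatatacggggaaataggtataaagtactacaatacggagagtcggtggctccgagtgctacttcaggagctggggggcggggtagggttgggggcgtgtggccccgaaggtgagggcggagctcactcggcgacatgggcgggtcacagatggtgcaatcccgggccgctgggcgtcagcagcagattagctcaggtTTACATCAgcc
Chac1: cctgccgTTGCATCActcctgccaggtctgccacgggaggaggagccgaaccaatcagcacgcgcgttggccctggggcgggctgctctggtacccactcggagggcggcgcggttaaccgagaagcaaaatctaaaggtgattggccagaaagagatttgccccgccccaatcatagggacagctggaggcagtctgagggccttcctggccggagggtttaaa
Asns: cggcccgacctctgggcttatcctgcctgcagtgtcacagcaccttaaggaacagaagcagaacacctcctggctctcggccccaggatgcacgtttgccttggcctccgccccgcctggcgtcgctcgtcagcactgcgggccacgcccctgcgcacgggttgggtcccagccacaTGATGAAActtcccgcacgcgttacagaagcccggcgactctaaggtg
Hspa5: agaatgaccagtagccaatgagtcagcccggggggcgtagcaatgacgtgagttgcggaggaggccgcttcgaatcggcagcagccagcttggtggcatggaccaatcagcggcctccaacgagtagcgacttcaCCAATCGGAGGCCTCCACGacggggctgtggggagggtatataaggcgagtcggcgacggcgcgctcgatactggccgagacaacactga
Herpud1: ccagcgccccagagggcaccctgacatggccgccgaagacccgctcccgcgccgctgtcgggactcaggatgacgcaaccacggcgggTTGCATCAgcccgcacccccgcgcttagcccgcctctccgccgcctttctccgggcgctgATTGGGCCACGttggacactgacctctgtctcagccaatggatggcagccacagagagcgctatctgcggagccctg

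In the Trib3 stretch the CARE is in reverse, TTACATCA, at bases 15 to 22 after the start. Chac1 has the reverse form TTGCATCA at -193 to -186, and Asns the forward form TGATGAAA at -23 to -16. Hspa5 has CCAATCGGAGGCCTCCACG at -65 to -47. Herpud1 holds a reverse CARE, TTGCATCA, at -112 to -105 and the ERSE-II ATTGGGCCACG at -52 to -42, and the 2 do not overlap. A match of letters is a description and not a measured binding site, and no match says only that the letters are not in that window. Among the other genes of the pathway with a window, a CARE was found for 5 of 9 genes of tRNA charging, 5 of 12 stress regulators and 2 of 13 genes of amino acid supply. An ERSE was found for 7 of 14 ER chaperone and folding genes and 2 of 13 genes of ER-associated degradation.

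Between ES cells at day 0 and EBs at day 4 of E14, 5 of the 10 genes were lower in the EBs and 0 were higher. These were Asns, Trib3, Ppp1r15a, Atf4 and Xbp1, with 0.261 to 0.511 of their ES level. The test was limma on log2 of the normalised read count plus 1, with Benjamini-Hochberg adjusted p under 0.05 over 15841 genes. By this rule 36% of all genes tested differed, 16.7% being lower and 19.2% higher at day 4. The day 4 and day 0 libraries did not overlap for 7 of the 10 genes, against 66.7% of all genes. The median log2 difference of the 10 was -1.05, and that of all genes 0.01. Scaling by total counts in place of the deposited factors put the median of all genes at 0.17 and the share of higher genes among those called at 64.3%, against 53.4%, and left the 5 calls in place.

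**Figure D1:**
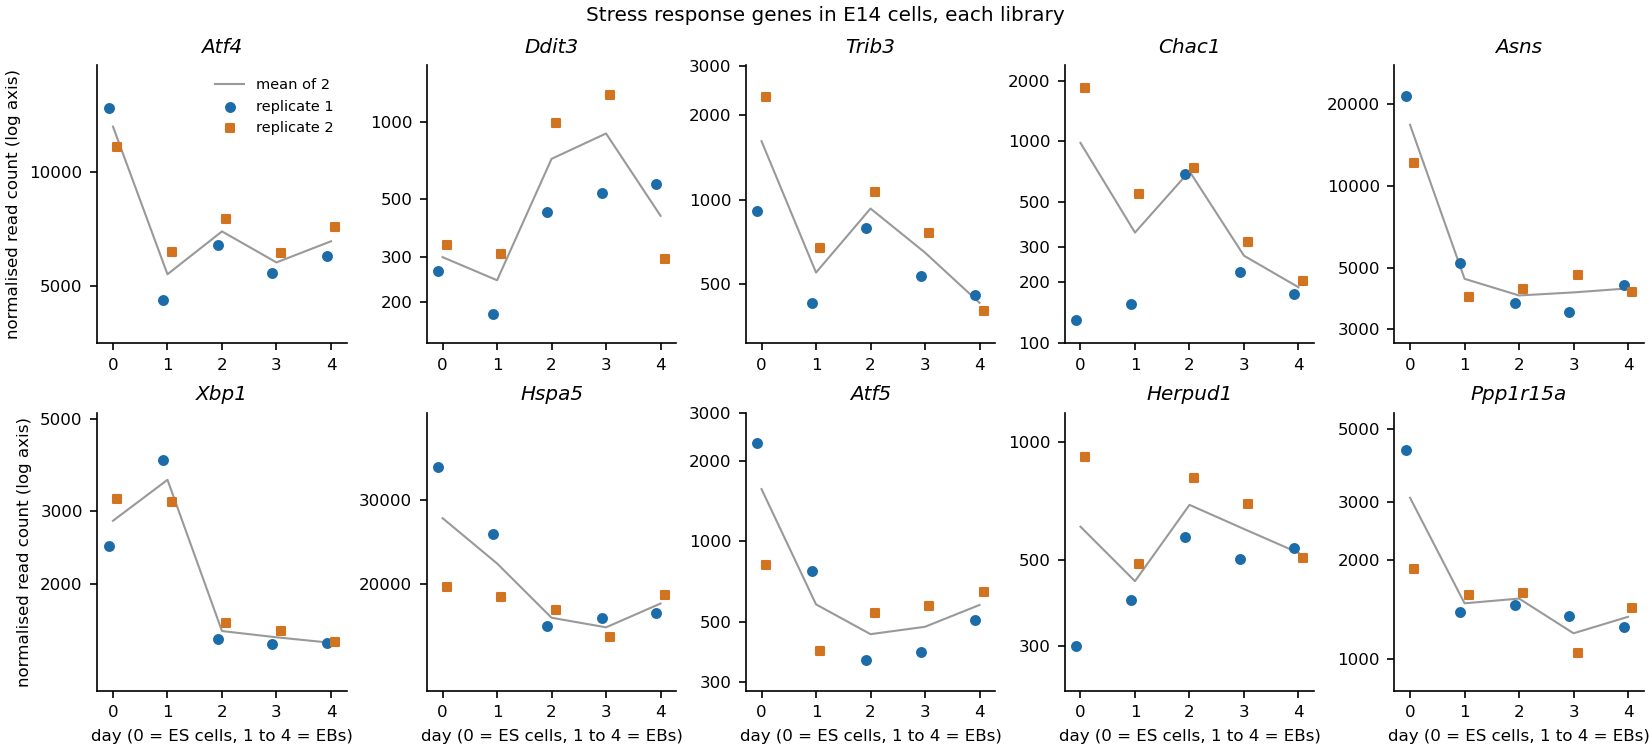
Normalised read count (log axis, a scale of its own for each gene) of the 10 stress response genes in the E14 time course, by day, with day 0 the ES cells. Points are the 2 libraries of a day and the line joins their means; Asns and Atf4 are highest in both day 0 libraries, while the 2 day 0 points of Chac1 lie at the bottom and the top of its range.

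Among the transcription factors, Atf4, which is translated when eIF2 is phosphorylated, had 14803 and 11636 normalised reads in ES cells, 4567 and 6148 at day 1, 6416 and 7510.2 at day 2, 5415 and 6105 at day 3, and 5974 and 7136 at day 4. Both ES libraries were above all 8 EB libraries, and neighbouring days from 1 to 4 overlapped in the order of their levels. Its level was lower at day 4 than at day 0 by a log2 difference of -1.01 ± 0.20 (SE, limma adjusted p = 0.00419). The drop was already present at day 1, with -1.31 ± 0.20 against day 0 (limma adjusted p = 0.0103).

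Xbp1, whose spliced form encodes the transcription factor of the IRE1 branch, followed another course. It had 2472 and 3214 normalised reads in ES cells, 3989 and 3153 at day 1, 1472 and 1604 at day 2, 1433 and 1538 at day 3, and 1437 and 1445 at day 4. Days 0 and 1 overlapped and were above all 6 later libraries. The difference of day 4 from day 0 was -0.97 ± 0.19 (limma adjusted p = 0.00374), and that of day 2 from day 1 was -1.21 ± 0.19 (limma adjusted p = 0.0399). The call of day 2 against day 1 was lost with no filter on low counts, with total-count scaling and without each of 7 libraries, with an adjusted p of up to 0.526 over the alternatives.

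Atf5, another bZIP factor whose translation is under eIF2 control, had 2320.25 and 813 normalised reads in ES cells, 775 and 389 at day 1, 360.2 and 541 at day 2, 388 and 572 at day 3, and 510.5 and 648 at day 4. Both ES libraries were above every EB library, but replicate 1 far more than replicate 2. The log2 difference of day 4 from day 0, -1.255 ± 0.49, did not pass (limma adjusted p = 0.0684), and edgeR's quasi-likelihood test and DESeq2 on the recovered reads gave adjusted p = 0.0461 and 0.0103.

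Ddit3, which encodes CHOP, a factor linked to cell death under lasting ER stress, had its highest means in the middle of the course. It had 263 and 334 normalised reads in ES cells, 180.1 and 306 at day 1, 447 and 988 at day 2, 527 and 1271 at day 3, and 571 and 292 at day 4. The 4 libraries of days 2 and 3 were above all 4 of days 0 and 1, and the 2 replicates within day 2, and within day 3, differed more than 2-fold. The change over any day gave limma adjusted p = 0.0652, with edgeR at 0.0492 and DESeq2 at 0.00196. Day 4 against day 0 was 0.46 ± 0.52 (limma adjusted p = 0.511). In RefSeq the Ddit3 gene overlaps Mbd6 and Mars1, and since the strand setting of the counting is not given in the sources used here, reads of these genes may not have been told apart.

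Of the target genes, Asns, which encodes asparagine synthetase, had the largest range of day means, 2.03 on the log2 scale, while Chac1 had the largest ratio of highest to lowest library, 14.2 against 6.21 for Asns. Asns had 21433 and 12227 normalised reads in ES cells, 5245 and 3915 at day 1, 3742 and 4216 at day 2, 3453 and 4713 at day 3, and 4333 and 4113 at day 4. Both ES libraries were more than 2-fold above every EB library, and the EB days overlapped one another. The log2 difference was -1.84 ± 0.27 for day 1 against day 0 (limma adjusted p = 0.00859) and -1.94 ± 0.27 for day 4 against day 0 (limma adjusted p = 0.00058). The call at day 4 held under all 18 alternatives, with differences from -2.34 to -1.53.

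Trib3, a pseudokinase that damps ATF4 and CHOP signalling, had 916 and 2321 normalised reads in ES cells, 429 and 673 at day 1, 795 and 1068 at day 2, 535 and 763 at day 3, and 459 and 401 at day 4. Day 4 was below day 0 with no overlap, and the day 2 libraries lay above those of days 1, 3 and 4. The difference of day 4 from day 0 was -1.76 ± 0.41 (limma adjusted p = 0.00865). It did not pass without EB day 4 replicate 2 (adjusted p = 0.0593, the highest of 18 alternatives, the lowest being 4.38e-05).

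Chac1, an enzyme that breaks down glutathione, had 129.5 and 1839 normalised reads in the 2 ES libraries, the lowest and the highest of its 10 values. It then had 157 and 549 at day 1, 688 and 735 at day 2, 226 and 316 at day 3, and 176 and 202 at day 4. From day 2 on the replicates lay close together and the days did not overlap. Day 4 against day 0 was -1.37 ± 0.98 (limma adjusted p = 0.294).

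Ppp1r15a encodes GADD34, which guides a phosphatase to eIF2 and so ends the response. It had 4298 and 1868 normalised reads in ES cells, 1385 and 1562 at day 1, 1459 and 1588 at day 2, 1351 and 1038 at day 3, and 1252 and 1429.6 at day 4. Both ES libraries were above every EB library. The difference of day 4 from day 0 was -1.08 ± 0.33 (limma adjusted p = 0.0274), and it did not pass without ES replicate 1 (-0.48, adjusted p = 0.0864), without EB day 4 replicate 1 (adjusted p = 0.142) or without EB day 4 replicate 2 (adjusted p = 0.0872), over a range of 0.000201 to 0.142 in 18 alternatives. The Ppp1r15a gene overlaps Tulp2, as Atf5 does Nup62 and Hspa5 does Rabepk in RefSeq, so the same caution on strand applies.

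In the ER, Hspa5, which encodes the chaperone BiP, had 35265 and 19732 normalised reads in ES cells, 25415 and 18726 at day 1, 16317 and 17604 at day 2, 16913 and 15465 at day 3, and 17377 and 18969.8 at day 4. The ES libraries were above those of day 4, replicate 2 by little. The difference of -0.54 ± 0.25 did not pass (limma adjusted p = 0.124). Herpud1, an ER membrane protein of the machinery that clears misfolded protein, had 299.6 and 915 normalised reads in ES cells, 395 and 486 at day 1, 572 and 811 at day 2, 503 and 696 at day 3, and 537 and 504 at day 4. As for Chac1, the 2 ES libraries held its lowest and highest values. Day 4 against day 0 was -0.01 ± 0.44 (limma adjusted p = 0.989), and its sign turned with total-count scaling (0.15) and with TMM scaling (0.02).

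Which ES library was used decided several of these values. Between the 2 ES libraries, 5 of the 10 genes differed at least 2-fold, against 24.9% of all genes. Chac1, Herpud1 and Trib3 were higher in replicate 2, with log2 ratios of replicate 1 over replicate 2 of -3.82, -1.61 and -1.34, while Atf5 and Ppp1r15a were higher in replicate 1, with 1.51 and 1.202. For Chac1 the counts were 118 reads in replicate 1 and 1549 in replicate 2, with 95% Poisson intervals of 107 to 155 and 1749 to 1933 normalised reads, which cover counting error only. Of all genes tested, 99.7% differed less between these 2 libraries than Chac1.

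With replicate 1 as the only ES library, the log2 difference of day 4 from day 0 was 0.79 for Herpud1 and 0.54 for Chac1. With replicate 2 alone it was -0.81 for Herpud1 and -3.28 for Chac1. Asns, Atf4, Trib3 and Xbp1 had differences below 0 with either. In these fits the single ES library was taken to vary like the other groups.

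**Figure D2:**
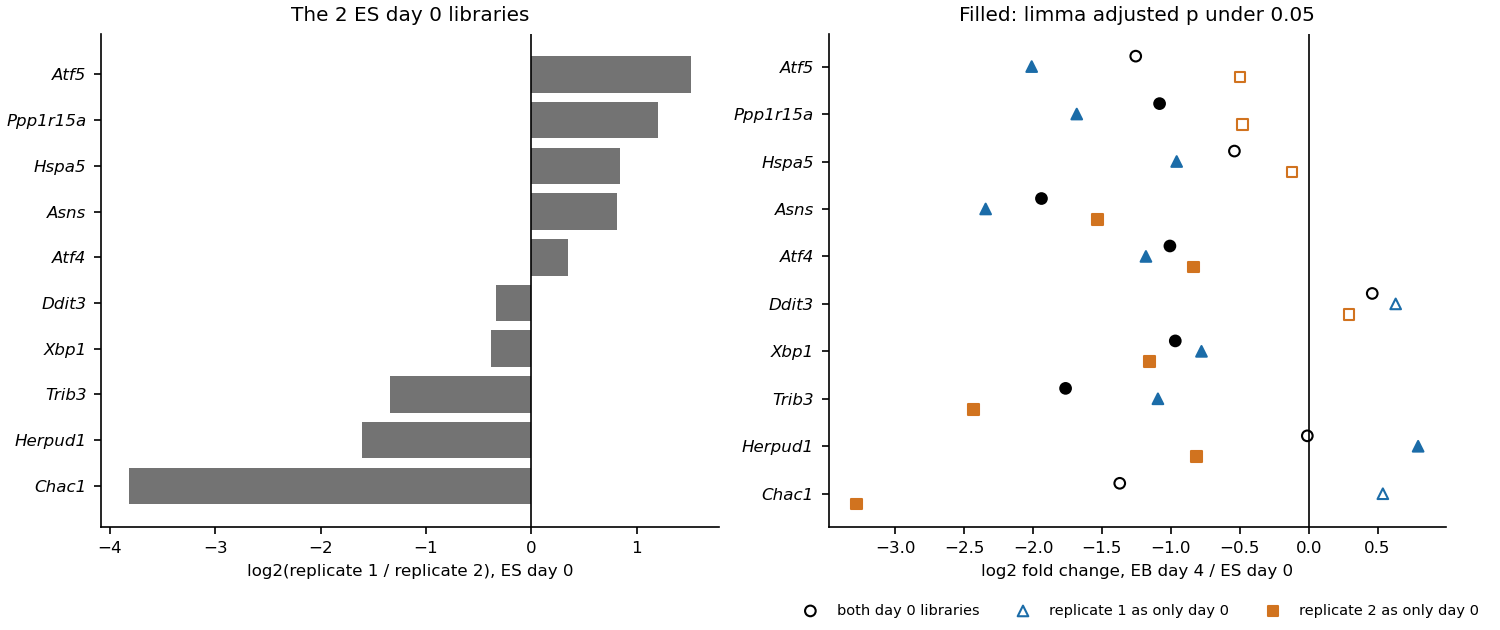
Left, log2 ratio of the normalised read counts of replicate 1 over replicate 2 in ES cells at day 0, for the 10 genes; right, log2 fold change of EB day 4 over ES day 0 with both ES libraries (circles), with replicate 1 as the only ES library (triangles) or with replicate 2 (squares), filled where the limma adjusted p is under 0.05. Herpud1 lies at 0.79 with replicate 1 and at -0.81 with replicate 2, and Asns, Atf4, Trib3 and Xbp1 are filled and below 0 in all 3.

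Other stress gene lists differed between the ES libraries in both directions, where 8021 of 15841 genes were higher in replicate 1 with a median log2 difference of 0.01. All 11 immediate early genes, which respond within minutes to growth factors and handling, were higher in replicate 1, with a median log2 difference of 1.72, and their summed level was 1565 CPM in replicate 1 and 463 CPM in replicate 2. Of 13 p53 targets, 11 were higher in replicate 1 (median 1.34), with sums of 3141 and 1209 CPM. ER chaperone and folding genes were higher in replicate 1 for 13 of 16 (median 0.34), and of the 13 genes of tRNA charging 2 were (median -0.29). Higher in replicate 1 were also 7 of 8 cytosolic heat shock genes (median 0.50), 9 of 13 stress regulators (0.66), 10 of 15 genes of ER-associated degradation (0.48), 6 of 16 genes of amino acid supply (-0.31) and 4 of 13 kinases and sensors (-0.32). Trophoblast markers, the keratins Krt8 and Krt18 foremost, summed to 986 CPM in replicate 1 and 334 CPM in replicate 2, with none of the 8 at 0. Feeder fibroblast markers summed to 25.5 and 29.3 CPM, with Lum at 0 in both. The part of any of these in the values of the 10 genes was not tested.

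Between day 1 and day 0, 2 of the 10 genes were called, Asns and Atf4, both lower at day 1, against 3.3% of all genes (1.55% lower and 1.75% higher). The libraries did not overlap for 5 of the 10, against 39.5%. Without EB day 1 replicate 1 Atf4 did not pass (adjusted p = 0.0586, over a range of 3.54e-06 to 0.0586 in 18 alternatives), and without EB day 1 replicate 2 Asns did not (adjusted p = 0.093, over a range of 9.09e-08 to 0.093). Trib3 (-1.44 ± 0.41, limma adjusted p = 0.0901), Atf5 (-1.32 ± 0.49, 0.17) and Ppp1r15a (-0.95 ± 0.33, 0.149) were below day 0 without passing.

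From day 1 to day 2 only Xbp1 was called among the 10, against 0.593% of all genes (0.436% lower and 0.158% higher), and 7 of the 10 did not overlap, against 61.2%. Ddit3 (1.498 ± 0.52, limma adjusted p = 0.158), Chac1 (1.27 ± 0.98, 0.516), Trib3 (0.78 ± 0.41, 0.333) and Herpud1 (0.64 ± 0.44, 0.47) lay above day 1 with no overlap and did not pass. From day 2 to day 3, 0 of the 10 were called by limma, edgeR or DESeq2, where limma called 0.133% of all genes. An unadjusted limma p under 0.05 was reached by 0 of the 10 and by 1640 of 15841 genes. There 4 of the 10 did not overlap, against 54.7%, with Chac1 at -1.41 ± 0.98 (limma adjusted p = 0.665). From day 3 to day 4, limma, edgeR and DESeq2 again called 0 of the 10, where limma called 2.93% of all genes (2.31% higher and 0.619% lower). Unadjusted, 0 of the 10 and 2363 of 15841 genes had a limma p under 0.05. The libraries did not overlap for 3 of the 10, against 55.1%. Neighbouring steps share the libraries of a day, as do day 1 and day 4 against day 0.

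Over all 5 days together, 4 of the 10 changed by the limma F test, against 38.9% of all genes, namely Asns (adjusted p = 0.00123), Xbp1 (0.00133), Atf4 (0.00431) and Trib3 (0.034). Both edgeR and DESeq2 called 7, adding Atf5, Ddit3 and Ppp1r15a, and their shares over all genes are not given here. The call of Trib3 was lost without 7 of the 10 libraries in turn and with total-count scaling, with an adjusted p of up to 0.107.

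The wider pathway was read from 6 further lists. Of 16 other ATF4 targets in amino acid supply, 12 were lower at day 4 than at day 0 and 0 higher, with a median log2 difference of -1.24. Slc7a3, a carrier of basic amino acids, averaged 1344 normalised reads at day 4 and 9257 in ES cells (-2.79 ± 0.18, limma adjusted p = 1.25e-05). Psat1 and Psph, enzymes of serine synthesis, were at -1.90 and -1.41, and Gpt2, an alanine aminotransferase, at -1.77. Of 13 genes of tRNA charging, which are synthetases and the tRNA exporter Xpot, 9 were lower and 0 higher, with a median of -0.70. Aars (-1.34 ± 0.14, limma adjusted p = 0.00014), Cars (-1.38), Tars (-0.88) and Yars (-0.88), which load tRNAs with alanine, cysteine, threonine and tyrosine, were among them.

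Of 13 regulators and stress outputs, 4 were lower and 2 higher, with a median of -0.66. Nupr1, a stress-induced chromatin protein, averaged 34.96 normalised reads at day 4 and 643 in ES cells (-4.18 ± 0.38, limma adjusted p = 6.85e-05). Gdf15, a secreted stress signal, was at -3.04, Sesn2 at -1.32 and Eif4ebp1, an inhibitor of translation start, at -1.39. The 2 higher genes were Ddit4, an inhibitor of mTOR signalling (2.70), and Vldlr, a lipoprotein receptor (4.00).

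In the ER lists fewer genes passed. Of 16 ER chaperones and folding enzymes, 2 were lower, Creld2 (-0.84 ± 0.23, limma adjusted p = 0.0183) and Sdf2l1 (-0.64), and 1 was higher, the oxidase Ero1l (1.89 ± 0.45, limma adjusted p = 0.00989), with a median of -0.34. With ES replicate 1 alone 8 were lower and 1 higher, and with ES replicate 2 alone 0 were lower and 2 higher. Of 15 genes of ER-associated degradation and translocation, 0 were lower and 1 was higher, the mannosidase-like Edem1 (0.76 ± 0.16, limma adjusted p = 0.00561), with a median of -0.22. That count was 5 lower and 2 higher with ES replicate 1 alone and 1 lower and 2 higher with ES replicate 2 alone.

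Among 13 eIF2 kinases, stress sensors and parts of the phosphatase, 3 were lower at day 4 and 2 higher. Atf6, the sensor of the third ER branch, was at -0.83 ± 0.18 (limma adjusted p = 0.00634), Eif2s1, the phosphorylated eIF2 subunit, at -0.55, and Ppp1r15b, the constitutive partner of the phosphatase, at -0.63. The higher ones were Eif2ak4, the kinase GCN2 that senses uncharged tRNA (0.66), and Ern1, which encodes IRE1 (1.06). Over all 5 days together Eif2ak4 passed the limma F test (adjusted p = 0.0277) and Ern1 did not (adjusted p = 0.107). The counts of these lists are read against 16.7% of all genes lower and 19.2% higher in the same comparison. These shares are of the fit with both ES libraries, so they are no base for the ER list counts with 1 ES library.

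**Figure D3:**
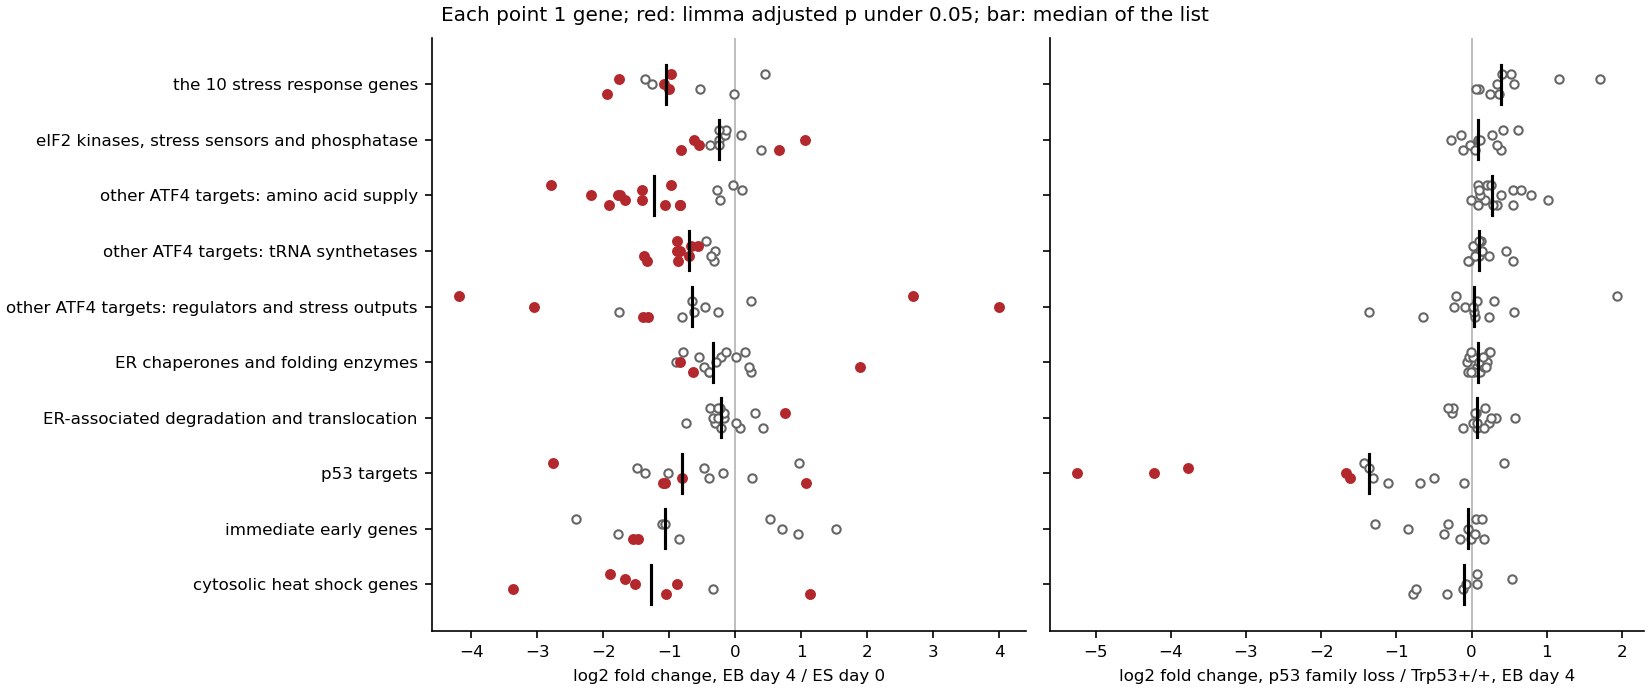
Log2 fold change of each gene of the stress response lists, for EB day 4 over ES day 0 in E14 (left) and for p53 family loss over Trp53+/+ in EBs at day 4 (right). Each point is 1 gene, red where the limma adjusted p is under 0.05, and the bar is the median of the list; the 10 stress response genes have medians of -1.05 on the left and 0.38 on the right, the lists of amino acid supply -1.24 and 0.27.

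The genes whose course was most like that of Trib3 and Hspa5 were found by the root mean square difference of centred log2 values over the 10 E14 libraries, among 9225 genes. For Trib3, whose own values had an SD of 0.76, these were Fam129a (0.24), Gpt2 (0.30), Lrrc8d (0.39), Aldh18a1 (0.40) and Slc1a5 (0.40), all highest in ES replicate 2 as Trib3 was. Fam129a is a stress-responsive protein, Aldh18a1 an enzyme of proline synthesis and Slc1a5 a glutamine carrier. For Hspa5, with an SD of 0.36, they were Tmem93 (0.08), Exosc8 (0.09), Dnajb11 (0.09), Polr3d (0.09) and Bcl7b (0.09), all highest in ES replicate 1. Dnajb11 is an ER co-chaperone of BiP. Among the 10 themselves the closest pairs were Atf4 with Ppp1r15a (0.29), Hspa5 with Ppp1r15a (0.30) and Asns with Atf5 (0.33). These measures share the libraries and are descriptions.

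In EBs at day 4, 0 of the 10 genes passed between p53 family loss and Trp53+/+ by limma, where 1.24% of 14840 genes did, 0.566% higher and 0.674% lower. An unadjusted limma p under 0.05 was reached by 4 of the 10 and by 2065 of 14840 genes. By edgeR 0 were called, and by DESeq2 2, Chac1 and Trib3, though DESeq2 called more genes in all than limma. All 10 estimates were above 0, with a median of 0.38, while 7570 of 14840 genes were above 0, with a median of 0.01. The 10 also lay to 1 side between the 2 Trp53+/+ libraries, where 0 were higher in replicate 1, against 7581 of 14840 genes. Their median log2 ratio of replicate 1 over replicate 2 was -0.32 there, and that of all genes 0.01. In p53 family loss 2 of the 10 were higher in replicate 1 (median -0.13), against 6940 of 14840 genes (-0.03). The groups did not overlap for 6 of the 10, against 43.1% of all genes.

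**Figure D4:**
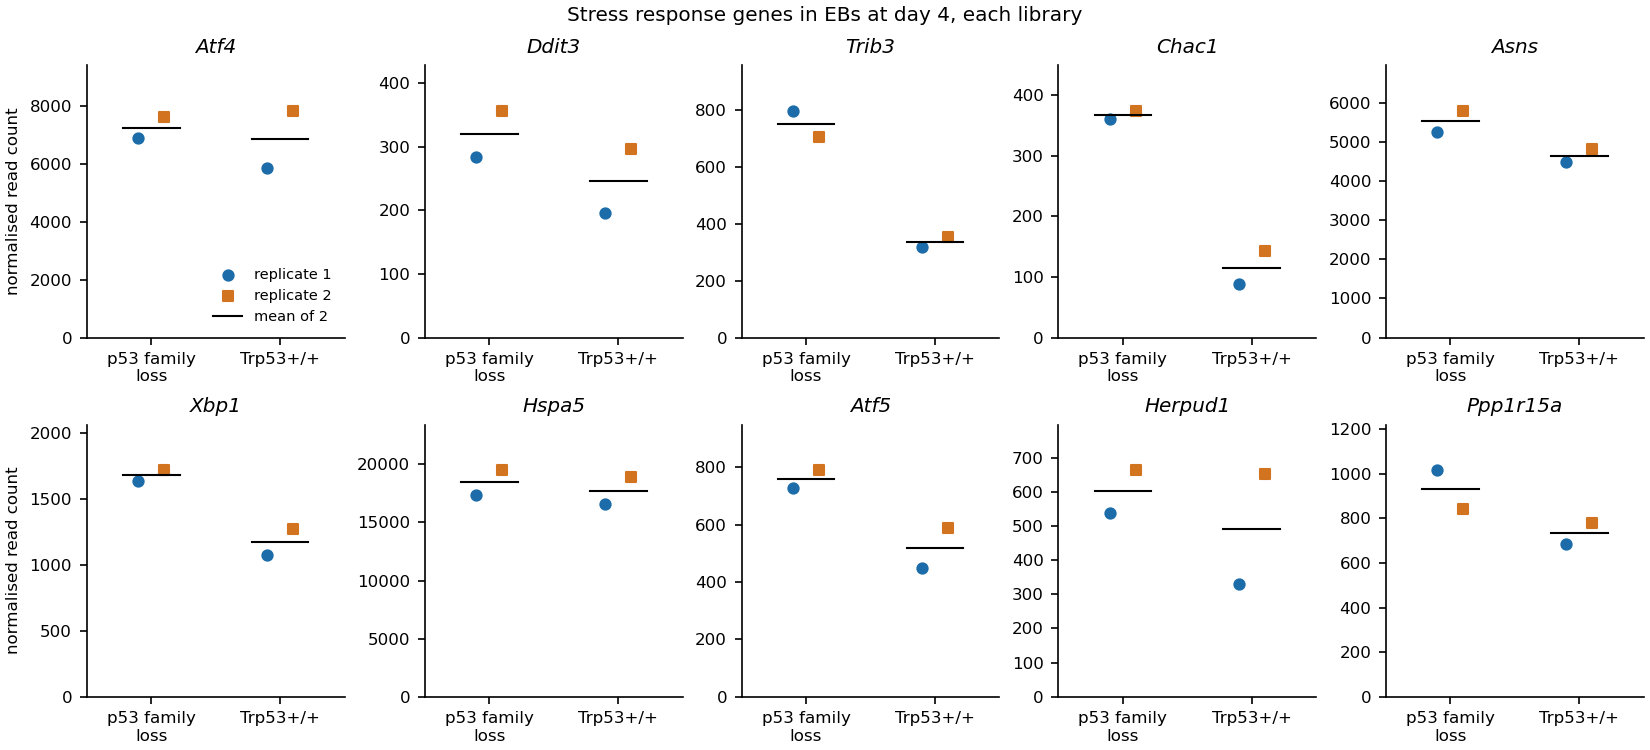
Normalised read count (linear axis from 0, a scale of its own for each gene) of the 10 stress response genes in EBs at day 4, with p53 family loss left of Trp53+/+. Points are the 2 libraries of a genotype and short lines their mean; Chac1 and Trib3 lie above Trp53+/+ in both libraries of p53 family loss, and Atf4 and Hspa5 overlap.

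The 2 genes with the largest differences were targets of ATF4 and CHOP. Chac1 had 361 and 374 normalised reads in p53 family loss, against 87.7 and 142 in Trp53+/+. Both p53 family loss libraries were more than 2-fold above both others, with a log2 difference of 1.71 ± 0.29 (limma adjusted p = 0.0619, unadjusted p = 0.000919). Trib3 had 798 and 705 normalised reads in p53 family loss, against 319.7 and 353 in Trp53+/+, again without overlap, and the difference was 1.16 ± 0.19 (limma adjusted p = 0.0546, unadjusted p = 0.00071). DESeq2 gave adjusted p = 5.66e-05 for Chac1 and 0.000504 for Trib3, and edgeR 0.0633 and 0.053. Over 12 alternatives the differences ran from 1.37 to 2.05 for Chac1 and from 1.07 to 1.25 for Trib3. With all libraries kept, both genes passed with DESeq2 and with a term for the replicate number (replicate block). Trib3 also passed with no filter on low counts. DESeq2 and the block called more genes in all than the main fit. Neither gene passed with edgeR, with total-count or TMM scaling, or with a pseudocount of 0.5 or 10.

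Xbp1 had 1633 and 1718 normalised reads in p53 family loss, against 1070.3 and 1269.6 in Trp53+/+, a difference of 0.52 ± 0.17 (limma adjusted p = 0.235). Atf5 had 729 and 790.45 in p53 family loss, against 447 and 589 in Trp53+/+, 0.56 ± 0.21 (limma adjusted p = 0.301). For Asns the counts were 5256 and 5799 in p53 family loss and 4478 and 4824 in Trp53+/+ (0.25 ± 0.15, limma adjusted p = 0.56). These 3 genes did not overlap between the genotypes and did not pass. Over 12 alternatives the differences ran from 0.399 to 0.645 for Xbp1 and from 0.365 to 0.761 for Atf5. With all libraries kept, Xbp1 and Atf5 passed only with the replicate block, which called more genes in all than the main fit. Ppp1r15a did not overlap and did not pass either, with 1017 and 844 in p53 family loss and 686 and 780.1 in Trp53+/+ (0.34 ± 0.19, limma adjusted p = 0.508).

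The remaining 4 genes overlapped between the genotypes. Atf4 itself had 6898 and 7615 normalised reads in p53 family loss, against 5875 and 7846 in Trp53+/+ (0.09 ± 0.19, limma adjusted p = 0.887). Hspa5 had 17395 and 19517 in p53 family loss, against 16541 and 18932 in Trp53+/+ (0.06 ± 0.17, limma adjusted p = 0.924). For both genes the p53 family loss libraries overlapped those of Trp53+/+. Ddit3, with 285 and 357 in p53 family loss and 195 and 297 in Trp53+/+, was at 0.40 ± 0.28 (limma adjusted p = 0.627), and Herpud1, with 538 and 664 in p53 family loss and 329 and 651 in Trp53+/+, at 0.37 ± 0.34 (limma adjusted p = 0.734). Without Trp53+/+ replicate 1 the estimates of Atf4, Hspa5 and Herpud1 fell below 0.

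In the same comparison 0 genes of the 6 further lists passed by limma. Of the 16 genes of amino acid supply 15 were above 0 (median 0.27), against 7570 of 14840 genes. This list also lay to 1 side between the 2 Trp53+/+ libraries, where 3 of 16 were higher in replicate 1, against 7581 of 14840 genes. Within p53 family loss 4 of 16 were higher in replicate 1, against 6940 of 14840 genes. Between the genotypes an unadjusted limma p under 0.05 was reached by 5 of the 16, against 2065 of 14840 genes. The smallest was that of the glycine carrier Slc6a9, which averaged 482 normalised reads in p53 family loss and 236 in Trp53+/+ (1.02 ± 0.21, limma adjusted p = 0.0948). Medians were 0.10 for tRNA charging, 0.08 for kinases and sensors, 0.09 for ER chaperones, 0.07 for ER-associated degradation and 0.03 for regulators and stress outputs. In the last list Nupr1 averaged 179 normalised reads in p53 family loss and 51.5 in Trp53+/+ (1.93 ± 0.46, limma adjusted p = 0.131). Bbc3 (-1.37, limma adjusted p = 0.117) and Sesn2 (-0.64, limma adjusted p = 0.205), which are known p53 targets as well, had estimates below 0. Across the 6 lists DESeq2 called 2 genes higher and 1 lower, and edgeR 0. DESeq2 also called more of all genes than limma, as given with the alternatives below. Its count here is not read as a result about the lists.

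Cell type markers were read in the same comparison. Primitive streak and mesoderm markers summed to 336 and 295 CPM in p53 family loss, against 1425 and 1478 CPM in Trp53+/+, with 6 of 8 genes lower by limma and none at 0. Feeder fibroblast markers summed to 113 and 89.9 CPM in p53 family loss, against 47.4 and 40.6 CPM in Trp53+/+, with 1 of 7 tested genes, Col1a2, higher, and with Lum at 0 in replicate 2 of both and Postn at 0 in Trp53+/+ replicate 2. Visceral and parietal endoderm markers summed to 887 and 763 CPM in p53 family loss, against 715 and 405 CPM in Trp53+/+, with Afp at 0 in p53 family loss replicate 2 and Ttr in Trp53+/+ replicate 2. Of 9 of these endoderm genes tested 0 passed and 2 did not overlap, and likewise 0 of 8 ES cell markers and 0 of 7 trophoblast markers passed by limma. The p53 targets summed to 671 and 590 CPM in p53 family loss, against 1431 and 1225 CPM in Trp53+/+, with 5 of 13 lower. The part of these in the values of the 10 genes was not tested.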

How the data were processed

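Per the labels' protocols, TruSeq RNA v2 libraries were read from both ends, and RNA had to have a RIN above 9.5. Tools in the submitters' processing notes are Bowtie2, HTSeq 0.5.4, SAMtools 0.1.19, FastQC 0.11.3 and DESeq2, with mm9 as the build; which tool did what is not given in the sources used here. The 2 tables the authors deposited give a signal per gene, that is, each library's read counts over a factor of its own: 100% of the values were whole multiples of the smallest step within 1e-06, so whole reads were recovered. The factors equalled median-of-ratios factors in the time course and were 1.06 to 1.09 times them in the genotype table, so levels are compared across tables only in CPM. The 16 ChIP and input samples are not analysed here.

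Signal is called normalised read count. Genes were kept by filterByExpr (15841 of 23284 in the time course, 14840 in the genotype table), and each table was fitted whole with limma 3.58.1 (R 4.3.3) with a trend, on log2 of the signal plus 1, with group as the only term, 5 and 2 residual and 4.98 and 4.33 prior degrees of freedom, and Benjamini-Hochberg adjustment at 0.05. Fold changes on this scale understate those of low genes. The fit was tested on simulated data. Alternatives were pseudocounts of 0.5 and 10, no filter, total-count and TMM scaling, a replicate block, each library left out, and edgeR 4.0.16 and DESeq2 1.42.0 on recovered reads. Poisson intervals of 95% cover counting error only, and the precision of the tests is set by the spread between libraries.

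The 10 genes and all lists were chosen with earlier results of these data known. Besides the 10, up to 4 genes a pathway list with the smallest p in day 4 against day 0 and in the genotype comparison are named, and up to 5 genes nearest in course to Trib3 and Hspa5 with at least 10 CPM. Ern1, Ddit4, Vldlr, Xpot, Krt8, Krt18, Col1a2, Lum, Postn, Ttr and the genes of the closing observations were named after their values were seen.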

Additional observations from a re-analysis of the deposited data

How the results depend on the processing

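For day 4 against day 0 the count of the 10 genes called stayed at 5, or 6 with edgeR and DESeq2, and ran from 3 to 8 when 1 library was left out. Herpud1 changed sign with total-count scaling (0.145), TMM scaling (0.018), without ES day 0 replicate 2 (0.794) and without EB day 4 replicate 2 (0.035), Chac1 without ES day 0 replicate 2 (0.538), and Ddit3 without EB day 4 replicate 1 (-0.02). The other ends of these ranges with 1 library left out were -0.814 for Herpud1, -3.28 for Chac1 and 0.943 for Ddit3. In the genotype comparison Atf4 (-0.114), Hspa5 (-0.039) and Herpud1 (-0.124) changed sign without Trp53+/+ replicate 1, and Hspa5 without p53 family loss replicate 2 (-0.025), with 0.303, 0.156 and 0.858 as the other ends for Atf4, Hspa5 and Herpud1. The ES libraries differ as described, and the cause of these changes of sign was not tested.

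For any day, limma called 6159 genes (3444 to 10525 with 1 library left out) and 4 of the 10 (3 to 10). With edgeR 7 of the 10 were called, and 7 with DESeq2. Totals of these 2 over all genes are not given here for any day or for day 4 against day 0. Their counts in these comparisons are therefore not read against those of limma. In day 4 against day 0, 5698 genes were called (2817 to 7619). In day 1 against day 0, 523 were called (67 to 5176) and 1450 with DESeq2, which called 5 of the 10, against 2 (1 to 5). In day 2 against day 1, 94 were called (0 to 1739), 21 with no filter, 24 with total-count scaling and 1290 with DESeq2, and 1 of the 10 (0 to 1), 0 with no filter or total-count scaling and 2 with DESeq2. In day 3 against day 2, 21 were called (1 to 217) and 315 with DESeq2, and in day 4 against day 3, 464 (43 to 1331) and 1026 with DESeq2, with 0 of the 10 throughout.

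Between the genotypes 184 genes were called (208 to 1613 with 1 library left out), 121 with total-count scaling and 657 with DESeq2. Of the 10, 1 was called with no filter (Trib3, adjusted p = 0.0484), 2 with DESeq2 and 0 to 4 with 1 library left out. The replicate numbers of the labels are shared by the groups, but nothing says that they mark a shared culture, and the deviations of same-numbered libraries correlated at -0.19 to 0.351 over 10 pairs of days and at 0.572 in the 1 genotype pair. With a replicate block, 2973 genes and 4 of the 10 (Trib3, Chac1, Xbp1 and Atf5) were called between the genotypes, and in day 4 against day 0 the same 5 genes of the 10. Where a group was left with 1 library, it was taken to vary like the others. With 2 libraries a group, depth is not the main limit: the lowest count of the 10 genes was 101 reads, for Chac1.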

Other observations

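The cytosolic heat shock genes, which answer misfolded protein outside the ER, gave 6 of 8 lower and 1 higher at EB day 4 than in ES cells of E14, against 16.7% and 19.2% of all genes. Hspb1, a small heat shock protein, averaged 601 normalised reads at day 4 and 6363 in ES cells, a log2 difference of -3.37 ± 0.37 (limma adjusted p = 0.000151). Hsp90aa1, the inducible cytosolic HSP90, was at -1.51 ± 0.16 (limma adjusted p = 0.000154), and Bag3, a co-chaperone of selective autophagy, was the higher one at 1.14 ± 0.16 (limma adjusted p = 0.000596). Between p53 family loss and Trp53+/+, 0 of the 8 passed by limma, and Hspa8, the constitutive HSP70, averaged 12789 normalised reads in p53 family loss and 21966 in Trp53+/+ (-0.78 ± 0.18, limma adjusted p = 0.119).

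At EB day 1, 2 genes of the pathway lists were called higher than in ES cells, where 1.75% of all genes were. They were 1 of 16 genes of amino acid supply and 1 of 15 of ER-associated degradation and translocation. This count is not read as a result about the lists. Derl3, an ER membrane protein of the degradation machinery, had 379 and 239.8 normalised reads in ES cells, 752 and 743 at day 1, 924 and 983 at day 2, 622 and 638 at day 3, and 313 and 230.5 at day 4. The 6 libraries of days 1 to 3 were above the other 4, and day 1 differed from day 0 by 1.31 ± 0.26 (limma adjusted p = 0.0287). Slc38a2, a carrier of neutral amino acids, had 10957 and 16295 normalised reads in ES cells, 30832 and 30953 at day 1, 20309 and 15358 at day 2, 11088 and 12784 at day 3, and 11748 and 14521 at day 4, and its day 1 difference was 1.21 ± 0.22 (limma adjusted p = 0.0208), while Asns and Atf4 were lower in the same step.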
